A study of Sus scrofa with 5 samples.

Results

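A group of 4 genes of the secretory and endocytic system and the long intergenic non-coding RNA (lincRNA) beside each of them was followed through the development of the additional molars of the miniature pig. The genes were RPN1, COG4, AP2M1 and ZDHHC18, each represented by the 1 assembled transcript that the study had paired with a lincRNA, so that 8 of the 45614 transcripts of the data set were members. They were taken from a list of 12 such pairs, with earlier results of these data known, for the function of the gene and for the opposite course of gene and lincRNA over the stages. That opposite course is therefore a description and was not tested.

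The additional molars are the permanent molars, which arise from the backward extension of the dental lamina without milk predecessors. Germs with the dental lamina were dissected from the mandible of wild-type Wuzhishan miniature pig embryos at embryonic day 50 (E50), when the first molar was at cap stage, E60, when it was at bell stage and the second molar was starting, and E70, when the first molar was at late bell stage. RNA of germs of the same stage was pooled, so epithelium, mesenchyme and all other cells of the germ were measured together, and fewer cells of a type cannot be told apart from less RNA per cell. By the labels there were 3 samples of E70 and 1 of each earlier stage, but the deposited table gives 1 value per transcript and stage, so the values below carry no replicate error, and none of them was given a P value here. Transcripts were measured in FPKM, that is, sequenced fragments per exon length, scaled to the sequencing yield, and the number of reads behind each value is unknown.

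Proteins for the cell surface and the extracellular matrix enter the endoplasmic reticulum, receive N-linked sugars there and pass through the Golgi apparatus in vesicles, while clathrin-coated vesicles take surface proteins back into the cell. RPN1 (ribophorin I) is a subunit of the oligosaccharyltransferase, which attaches N-glycans in the endoplasmic reticulum. COG4 belongs to the conserved oligomeric Golgi complex, a tether for vesicles that recycle Golgi enzymes, AP2M1 is the mu subunit of the AP-2 adaptor, which links cargo to clathrin at the plasma membrane, and ZDHHC18 is a palmitoyltransferase of the DHHC family, which attaches palmitate to cysteines of target proteins. Enamel and dentine matrix proteins are made through this pathway later in tooth development.

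In the endoplasmic reticulum, the RPN1 transcript (TCONS_00440660) had 0.694, 34.7 and 1.08 FPKM at E50, E60 and E70. Its level at E60 was 50.0 times that at E50 and 32.2 times that at E70. The lincRNA beside it (TCONS_00440797) had 28.4, 1.58 and 32.0 FPKM at the same stages. It was thus low at the single stage at which the RPN1 transcript was high, and at E50 and E70 its levels lay within 1.13-fold of each other.

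The COG4 transcript (TCONS_00705778), of the Golgi tether, had 0.748 FPKM at E50 and 1.15 at E70, against 28.9 at E60. Its lincRNA (TCONS_00704136) had 43.3, 1.52 and 76.0 FPKM. On the linear scale the COG4 transcript was 38.6 times higher at E60 than at E50, and the lincRNA was 28.5 times higher at E50 than at E60.

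At the plasma membrane, the AP2M1 transcript (TCONS_00596741) was the most abundant of the 4 gene transcripts, with 205 FPKM at E60, against 20.8 at E50 and 15.9 at E70. Its ratio of E60 to E50, 9.83, was the smallest of the 4. Its lincRNA (TCONS_00594264) was the most abundant of the 4 lincRNAs, with 138 FPKM at E50, only 4.60 at E60 and 290 at E70.

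The transcript of the palmitoyltransferase ZDHHC18 (TCONS_00317452) was the lowest of the 4 genes at every stage, with 0.274 FPKM at E50, followed by 10.5 at E60 and 0.603 at E70. Its lincRNA (TCONS_00318982) had 73.7, 0.777 and 58.4 FPKM. This lincRNA showed the largest fold difference between E50 and E60 of the 8 transcripts, being 94.9 times higher at E50.

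**Figure D1:**
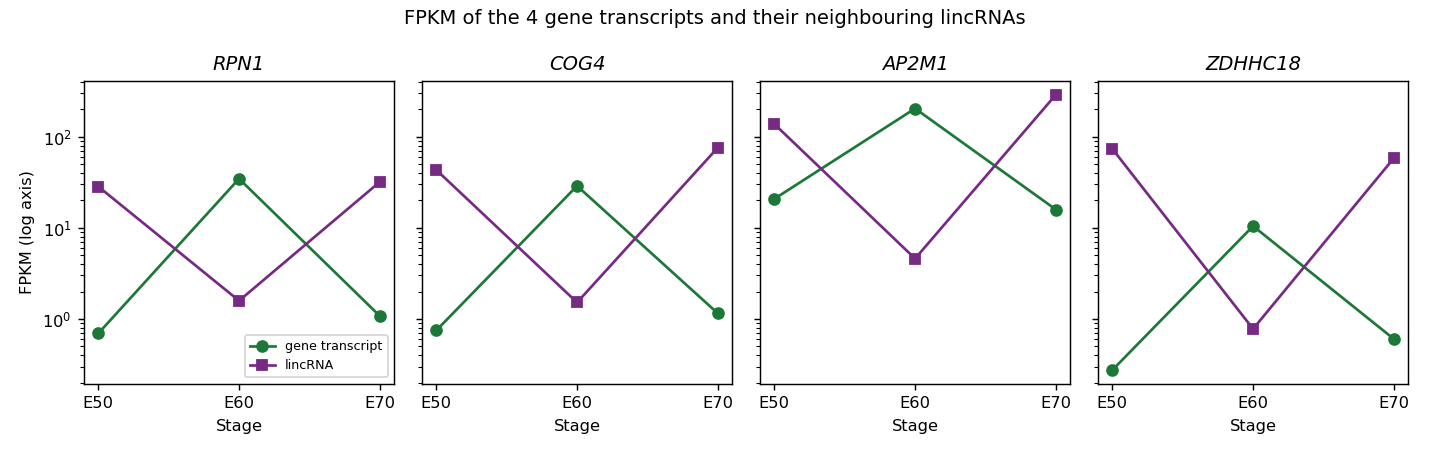
FPKM on a log axis (vertical) at E50, E60 and E70 (horizontal) for the 4 gene transcripts (green circles) and their lincRNAs (purple squares), 1 value per stage without replicates. In each panel the gene transcript is highest and the lincRNA lowest at E60, from 10.5 to 205 FPKM for the genes and from 0.777 to 4.60 FPKM for the lincRNAs.

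On the log2(FPKM + 1) scale, which understates the changes of transcripts near 0, the difference of E60 minus E50 was 4.40 for RPN1, 4.10 for COG4, 3.24 for AP2M1 and 3.17 for ZDHHC18. The lincRNAs differed in the other direction, by -3.51 beside RPN1, -4.14 beside COG4, -4.64 beside AP2M1 and -5.39 beside ZDHHC18. From E60 to E70 the gene transcripts differed by -4.10 (RPN1), -3.80 (COG4), -3.60 (AP2M1) and -2.84 (ZDHHC18), and the lincRNAs in that order by 3.67, 4.94, 5.70 and 5.06. The earliest and the latest stage differed less, with values of E70 minus E50 from -0.37 (AP2M1) to 1.06 (its lincRNA) over the 8 transcripts.

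A level 2-fold or more higher at E60 than at both other stages was given by 4 of 4 gene transcripts, and by 55.8% of the 41980 transcripts above 0 FPKM at any stage. Of the 41348 transcripts above 0 at E50 or E60, 61.8% were 2-fold or more higher at E60, and of the 41036 above 0 at E60 or E70, 62.4% were. The course of the genes was hence the most frequent one in the deposited values. After quantile normalisation it was given by 3 of the 4 genes and 26.2% of all transcripts, and after scaling to equal sums by all 4 genes and 79.7%. A level 2-fold or more lower at E60 than at both other stages was given by 4 of 4 lincRNAs and by 11.3% of the 41980 transcripts as deposited, by 4 of 4 and 19.2% after quantile normalisation, and by 2 of 4 and 6.95% after scaling to equal sums. Against E50 alone the share was 15.6% of the 41348, and against E70 alone 15.9% of the 41036. Since the members were chosen on these contrasts, nothing was read from their counts.

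**Figure D2:**
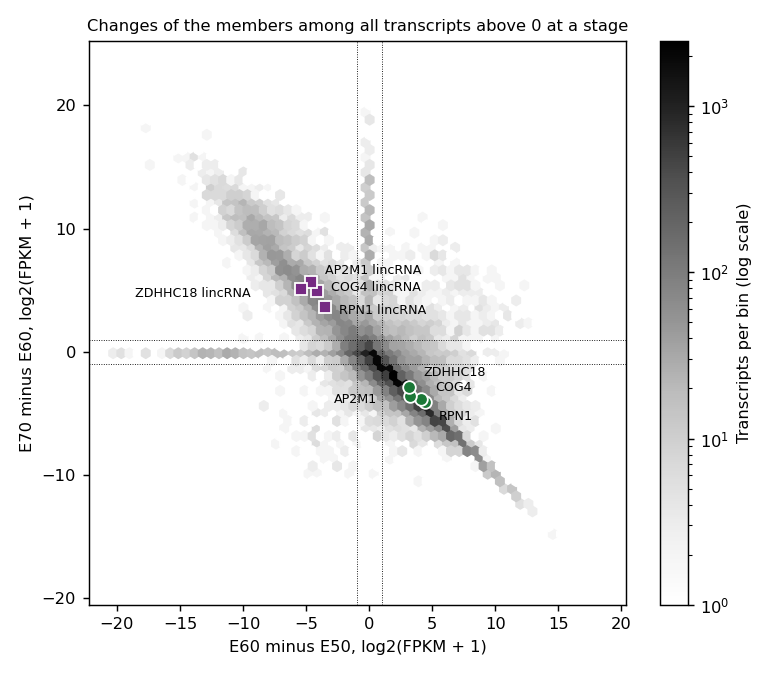
Difference of E60 minus E50 (horizontal) against E70 minus E60 (vertical) in log2(FPKM + 1) for all transcripts above 0 at any stage, with the number of transcripts per bin in grey on a log scale. Green circles are the 4 gene transcripts, purple squares the 4 lincRNAs, and dotted lines mark a 2-fold difference. The genes lie in the dense lower right arm, where 55.8% of the transcripts are past the lines in both steps, and the lincRNAs in the sparser upper left arm, with 11.3%.

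The stages themselves differed in scale and in detection, which bears on every difference between them. Above 0 FPKM were 37539 transcripts in the E60 values, but only 20727 in those of E50 and 19392 in those of E70. The hit ratios for the WZSP genome listed in the paper were also highest for E60. Whether these features of E60 shaped the courses of the members was not tested. The sum of all FPKM values was 4.47e+07 at E50, only 3.12e+06 at E60 and 8.90e+07 at E70, with 57.5%, 35.3% and 72.2% of the sum in the 10 highest transcripts. Among the 11301 transcripts above 0 at all stages, the median difference of E60 minus E50 was 0.88 as deposited, -1.13 after quantile normalisation, -0.23 after scaling to equal medians and 3.92 after scaling to equal sums. Relative to this median, E60 minus E50 ranged from 1.62 to 5.93 for the gene transcripts and from -6.45 to -3.62 for the lincRNAs on the log2 scale over the 4 scalings. From E60 to E70 the relative differences ranged from -6.67 to -1.12 for the genes and from 3.20 to 7.32 for the lincRNAs. The gene ranges depended on the transcripts behind the median. Relative to the median of the 41980 transcripts above 0 at any stage, a reference chosen after seeing the data, the gene transcripts ranged from 0.58 to 4.70 and then from -5.49 to 0.06, with ZDHHC18 at 0.58 and 0.06 after quantile normalisation and AP2M1 at 0.68 and -0.72 after scaling to equal medians, and the lincRNAs from -7.06 to -4.61 and then from 3.95 to 8.27. Without subtraction of the median, ZDHHC18 differed by 0.68 and -0.02 in the 2 steps after quantile normalisation. After scaling to equal sums the RPN1 lincRNA differed by -0.30 and -0.45 and the COG4 lincRNA by -0.93 and 0.76, both under 2-fold.

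The ratio of gene to lincRNA within a stage is not altered by scaling a whole stage by 1 factor, as equal medians or equal sums do, but quantile normalisation moves it. The RPN1 transcript had 0.0244 times the FPKM of its lincRNA at E50, 21.9 times at E60 and 0.0337 times at E70. For COG4 the ratio was 0.0173, 19.1 and 0.0152, for AP2M1 0.151, 44.5 and 0.0549, and for ZDHHC18 0.00372, 13.5 and 0.0103. In each pair the lincRNA was therefore the more abundant transcript at E50 and E70 and the less abundant one at E60, and the ratio varied over the stages by 811-fold (AP2M1) to 3619-fold (ZDHHC18). After quantile normalisation the lincRNA was more abundant at the same stages, and the ratio varied by 560-fold (COG4) to 5577-fold (AP2M1). This crossing was not particular to the 4 pairs. As deposited, it was given by every other pair of the study's list except SAMD4B, whose ratio was 0.0372 at E60.

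The 8 transcripts are not the whole output of their loci. The table places 29 transcripts at the 8 loci, of which 12 were assembled at the 4 gene loci. The locus of RPN1 was assembled on scaffold 252 of the WZSP genome (1362692 to 1386210) with 3 transcripts, and that of its lincRNA at 1392804 to 1520352 with 5, leaving 6593 bases between them. COG4 lay on scaffold 405 (10726540 to 10761703, 3 transcripts), 269 bases from its lincRNA locus (10672754 to 10726270, 4 transcripts). On scaffold 331, the AP2M1 locus (1657368 to 1666300, 5 transcripts) was 2162 bases from that of its lincRNA (1647850 to 1655205, 5 transcripts). ZDHHC18 on scaffold 197 (1487374 to 1518745) was the one gene with a single transcript, and 97 bases separated it from its lincRNA locus (1518843 to 1525904, 3 transcripts). Strand and exon boundaries were not analysed here, so it is not known whether gene and lincRNA face each other with their starts or their ends.

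At RPN1 a different transcript held the locus at E50 and E70. TCONS_00440576 had 337 FPKM at E50, was listed at 0 at E60 and had 1399 FPKM at E70. TCONS_00441003 followed the same order with 45.8, 0.544 and 108 FPKM. The transcript paired with the lincRNA made up 98.5% of the locus at E60 but 0.181% at E50 and 0.0715% at E70. Summed over its 3 transcripts, the RPN1 locus had 383, 35.2 and 1508 FPKM at the 3 stages, so the sum was 10.9 times higher at E50 and 42.8 times higher at E70 than at E60. After scaling to equal sums it was 198, 262 and 392, no longer lowest at E60.

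The COG4 locus gave the same picture with a smaller difference. TCONS_00707552 held 99.8% of the FPKM of the locus at E50 and at E70, with 491 and 703 FPKM, and had 30.7 at E60. The rest at E60 was carried by TCONS_00702554, which was listed at 0 at the other stages and had 34.9 FPKM, and by the paired transcript, with 30.6% of the locus. The sum over the locus was 492, 94.5 and 705 FPKM. It was 5.21 times higher at E50 than at E60, whereas the paired transcript was 38.6 times higher at E60 than at E50. After scaling to equal sums the locus was at 255, 702 and 183, highest at E60 like the paired transcript.

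The AP2M1 locus summed to 2017, 938 and 4947 FPKM, again lowest at E60, but this sum rested on a pair of transcripts that the table marks as having too little data in a comparison. These were TCONS_00595608, with 1193, 400 and 77.3 FPKM, and TCONS_00597898, with 803 FPKM at E50 and 0 at E60. For the latter the table gives 4795 FPKM at E70 in the comparison with E50 and 0 in the comparison with E60. With the value of 0 the locus had 151 FPKM at E70, and without both transcripts it had 20.8, 538 and 74.1 FPKM and was highest at E60. The direction of the AP2M1 locus is hence not determined by these data. TCONS_00596742, listed at 0 at E50 and E70, had 301 FPKM at E60, and the paired transcript made up 1.03%, 21.8% and 0.322% of the locus.

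**Figure D3:**
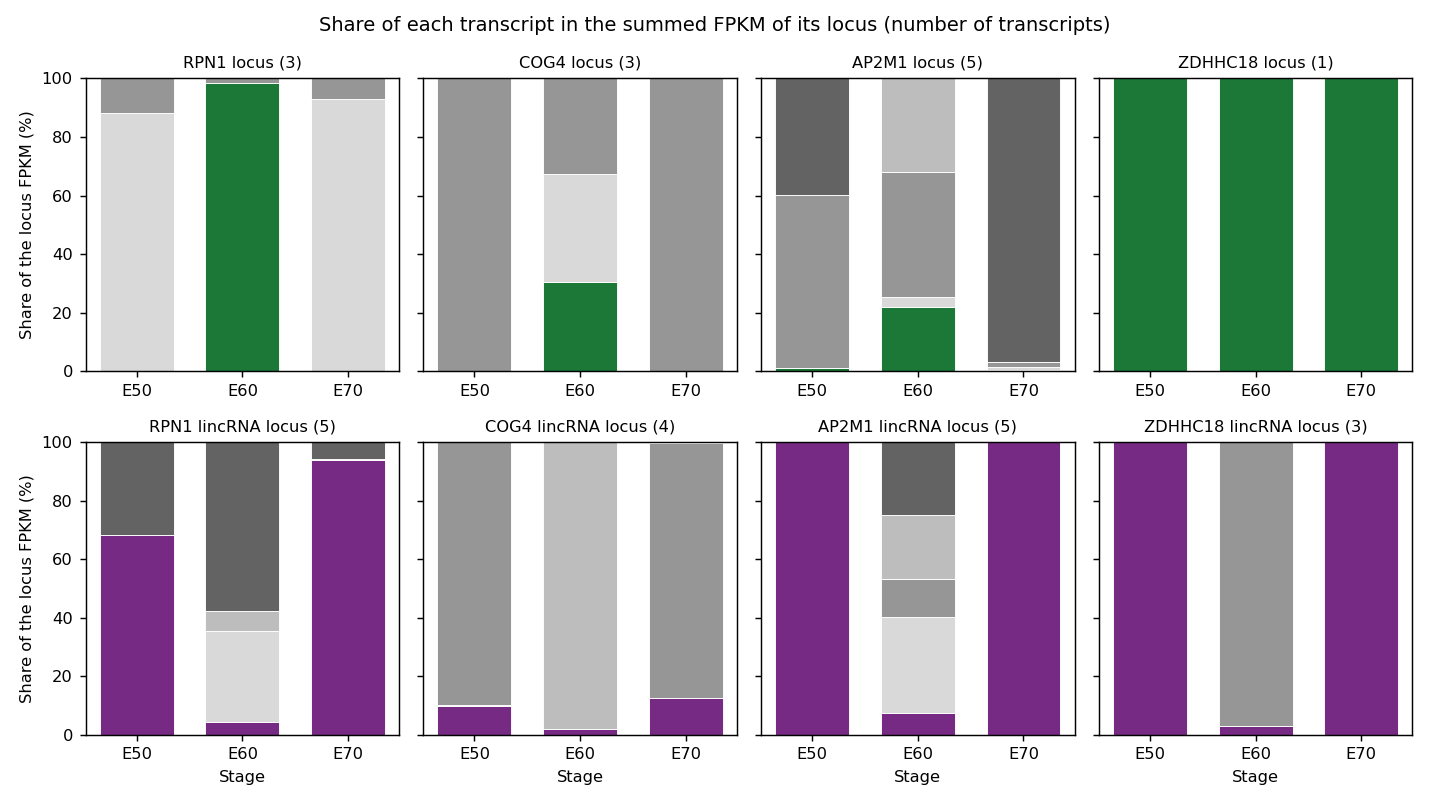
Share of each assembled transcript in the summed FPKM of its locus (vertical, %) at E50, E60 and E70 (horizontal), for the 4 gene loci (upper panels) and the 4 lincRNA loci (lower panels), with the number of transcripts in brackets. The paired gene transcript (green) holds 98.5% of the RPN1 locus at E60 and under 1% at the other stages, and the paired lincRNA (purple) holds its smallest share at E60 in all 4 lincRNA loci, beside other transcripts (greys).

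The transcript with the highest FPKM of the locus was the same at E50 and E70 and another one at E60 at 2 of the 3 gene loci with several transcripts, RPN1 and COG4, and at 4 of 4 lincRNA loci. Over the 5028 loci with 2 or more transcripts and a sum of at least 1 FPKM at every stage, this was so for 57.2%, and the leading transcript at E60 differed from those at E50 and E70 for 69.2%. The counts at the member loci were partly set by the choice of members. The paired lincRNA, chosen as low at E60, led at E50 and E70 at the lincRNA loci of RPN1, AP2M1 and ZDHHC18. The paired transcript of RPN1, chosen as high at E60, led there at E60. None of the 4 scalings changes the order of transcripts within a stage, but the value of each isoform depends on how the authors' software divided shared reads between overlapping transcripts. Of the 13 other transcripts at the lincRNA loci, 2 were listed at 0 throughout. Of the rest, 9 were highest at E60 and 2 were not. At the gene loci, 2 of the 8 other transcripts were highest at E60. Among the 41980 transcripts above 0 at any stage, 72.3% were highest at E60. At the ZDHHC18 lincRNA locus, TCONS_00320105 was listed at 0 at E50 and E70 and had 23.8 FPKM at E60, 96.8% of the locus. At the COG4 lincRNA locus, TCONS_00705479 had 395, 0 and 533 FPKM over the stages, and TCONS_00705835 had 0.562, 77.3 and 2.38.

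Summed over all transcripts, the lincRNA loci had smaller differences than the paired lincRNAs. The RPN1 lincRNA locus had 41.6, 37.5 and 34.1 FPKM, although its paired transcript made up 68.3%, 4.22% and 93.8% of these sums. The lincRNA locus beside COG4 had 440, 78.8 and 612 FPKM, the one beside AP2M1 138, 62.3 and 290, and the one beside ZDHHC18 73.7, 24.5 and 58.4. Each of these 3 sums was lowest at E60 in the deposited values, by 2.22-fold (AP2M1) to 5.58-fold (COG4) against E50. The sum was lowest at E60 for 20.5% of all loci. Relative to the median locus, the 3 sums differed by -3.76 to -0.73 (log2, E60 minus E50) over the 4 scalings. After scaling to equal sums, and without subtraction of the median, all 4 lincRNA loci were highest at E60, as were 84.8% of all loci, and the near-equal sums of the RPN1 lincRNA locus held only for the deposited values.

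**Figure D4:**
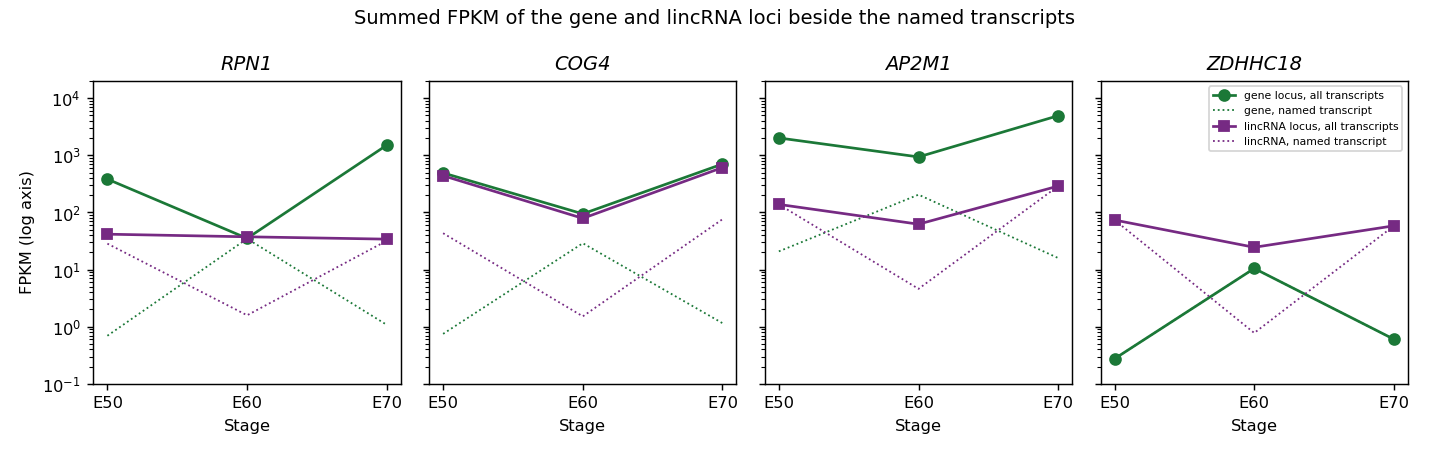
Summed FPKM of all transcripts at the gene locus (green circles) and the lincRNA locus (purple squares) on a log axis, beside the paired transcripts alone (dotted lines in the same colours), at E50, E60 and E70. The dotted lines cross in every panel, whereas the sums for COG4 run together (492, 94.5 and 705 FPKM against 440, 78.8 and 612) and those for RPN1 meet at E60.

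At the COG4 pair the sums of both loci kept an almost constant ratio. The COG4 locus had 1.12, 1.20 and 1.15 times the FPKM of its lincRNA locus at the 3 stages, a 1.07-fold range, while the ratio of the paired transcripts ranged 1259-fold. The AP2M1 locus had 14.6, 15.1 and 17.1 times the sum of its lincRNA locus, a 1.17-fold range. The RPN1 ratio was 9.20, 0.940 and 44.2, and that of ZDHHC18 was 0.00372, 0.427 and 0.0103. For comparison, chosen after these values had been seen, the ratio was computed for all 777 pairs of adjacent loci that lie less than 10 kb apart with sums of at least 1 FPKM at every stage. Its median range was 34.7-fold. A range no wider than that of COG4 was given by 1 of these pairs (COG4 itself). A range no wider than that of AP2M1 was given by 2 (COG4 and AP2M1 themselves). The comparison was prompted by these 2 ratios and made for the deposited values only, so nothing was read from their rank. The RPN1 pair, with a 47.1-fold range, was ordinary among the 777, since 54.7% of the pairs had a range no wider. The ZDHHC18 pair was not among them, as its gene locus was under 1 FPKM at E50 and E70. The AP2M1 ratio widened to 28.8-fold with the other value for TCONS_00597898 and to 57.3-fold without both transcripts of too little data. After quantile normalisation, which does not scale all values of a stage by 1 factor, the range was 2.68-fold for COG4, 12.8-fold for RPN1 and 13.8-fold for AP2M1.

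As deposited, the sum was highest at E60 for 1 of the 4 gene loci, ZDHHC18, and for 64.3% of the 16598 loci with a value above 0. It was lowest at E60 for RPN1 and COG4, for AP2M1 with the doubtful values included, and for 20.5% of all loci. The number of gene loci highest at E60 became 2 after quantile normalisation or without transcripts of too little data (AP2M1 joined in both) and 3 after scaling to equal sums, where COG4 and AP2M1 joined and E60 minus E50 was 0.40 for RPN1 and 1.46 for COG4. The share of all loci highest at E60 was 37.5%, 65.5% and 84.8% under these settings, in that order. Relative to the median of the 8725 loci above 0 at all stages, the E60 minus E50 difference ranged over the 4 scalings from -4.67 to -3.09 for the RPN1 locus, from -3.67 to -2.14 for COG4, from -2.43 to 2.11 for AP2M1 and from 1.67 to 2.41 for ZDHHC18. Transcripts that were high at E60 at a locus whose sum was lowest at E60 were no rarity, since 23.4% of the 20938 transcripts with this course at loci of 2 or more transcripts lay at such a locus. In the other 8 pairs of the study's list the gene locus was highest at E60 in 7, with sums of 0.422 to 2.74 FPKM at E50 and 0.145 to 3.40 at E70. The exception was SAMD4B, lowest at E60, with 63.5 and 69.0 FPKM at E50 and E70. The sums of RPN1 and COG4 at E50 and E70 lay above all of these values. So did those of AP2M1, except that its 20.8 FPKM at E50 without the transcripts of too little data was below that of SAMD4B. The ZDHHC18 locus did not, with 0.274 FPKM at E50 and 0.603 at E70. The study listed pairs of negatively correlated lincRNA and gene, and the paired gene transcript was highest at E60 in each of the other 8. That transcript was the only one at the CNOT8 and RBM5 loci and held 100% of the GGPS1 locus at every stage. The count of 7 was thus partly set by how the list was made, and nothing was read from it.

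**Figure D5:**
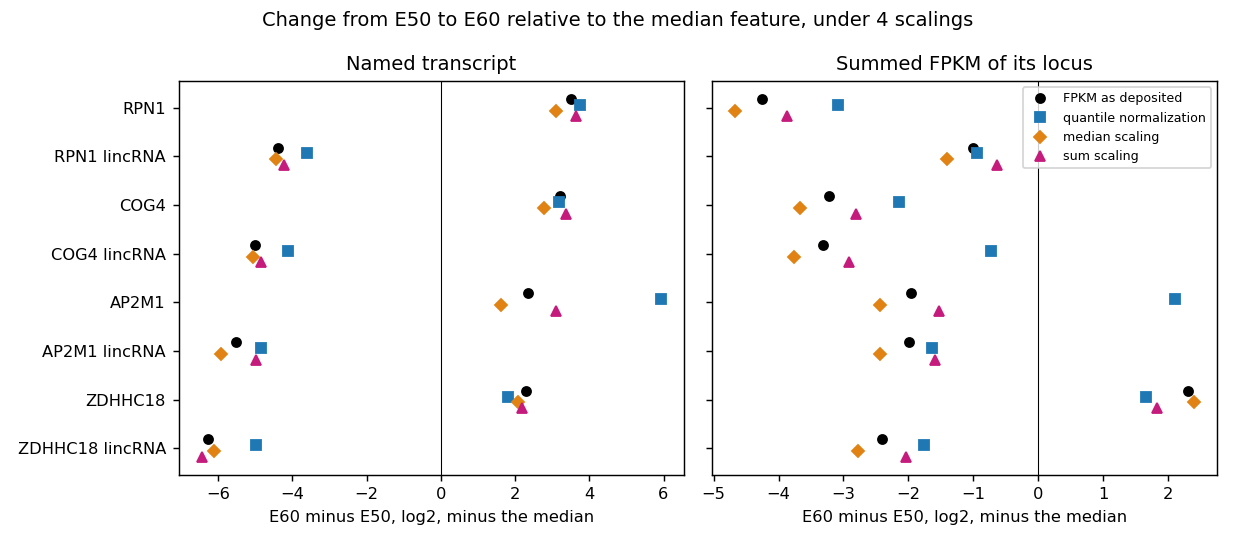
Difference of E60 minus E50 on the log2(FPKM + 1) scale minus the median of the 11301 transcripts (left) or 8725 loci (right) above 0 at all stages, for the paired transcripts and for the sums of their loci, under 4 scalings of the stages (symbols). The paired gene transcripts lie right of 0 (1.62 to 5.93) and the lincRNAs left of 0 under every scaling, whereas the RPN1 and COG4 sums lie left of 0 and AP2M1 changes side after quantile normalisation.

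The loci around the pairs did not share one course. Of the 14 other loci with a value above 0 within 100 kb of a gene locus, 9 (64.3%) were highest and 3 (21.4%) lowest at E60, near the shares over all loci. The locus 32 bases beyond COG4 (scaffold 405, 10761736 to 10781703) was listed at 0 at E50 and E70 and had 12.7 FPKM at E60. The locus 4375 bases beyond AP2M1 (scaffold 331, 1670676 to 1684519) had 132, 11.7 and 191 FPKM, the order of the AP2M1 lincRNA. Beyond the RPN1 lincRNA, the nearest locus (scaffold 252, 1553897 to 1601890) had 20.4, 0.473 and 27.7 FPKM. On the sides of the ZDHHC18 pair, the nearest loci on scaffold 197 had 4.25, 42.7 and 3.34 FPKM (1441679 to 1456382) and 0, 36.1 and 0 FPKM (1596928 to 1628967). The nearest loci on the remaining sides of RPN1, COG4 and AP2M1 reached at most 1.19 FPKM at any stage. In the Sscrofa11.1 assembly of the pig, the coding genes next to RPN1 are RAB7A and GATA2, those next to COG4 are FUK and SF3B3, those next to AP2M1 are DVL3 and ABCF3, and those next to ZDHHC18 are PIGV and SFN. The neighbouring loci of the table were not paired with these names.

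The course of the gene transcripts over the stages was also found at other loci. By Euclidean distance over the 3 values of log2(FPKM + 1), the transcript nearest to COG4 was TCONS_00856603 (0.691, 29.7 and 1.10 FPKM, distance 0.0685). TCONS_01161344 (0.744, 31.5 and 1.19 FPKM) was the nearest one to RPN1 (distance 0.159) and the second nearest to COG4 (0.123), and TCONS_01065452 was second for RPN1 (0.159). For ZDHHC18 the nearest were TCONS_00388931 (distance 0.0836) and TCONS_00434668 (0.0898). AP2M1 had no neighbour as close, with distances of 0.512 to TCONS_00781851 and 0.515 to TCONS_00134857. Such distances rest on 3 values per transcript.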

How the data were processed

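The authors sequenced RNA pooled by stage from libraries they describe as normalised cDNA, aligned the reads to the WZSP pig genome with TopHat, and assembled and compared transcripts with Cufflinks (version 1.0.3 in the submitters' processing notes, a later one in the paper's methods, so the version behind the values is not known) and Cuffdiff. The authors deposited a table with 1 FPKM value per transcript and stage. It also holds their fold changes, test statistics, p-values and q-values, which were not used. It gives no counts and no symbols. Gene names came from the study's list of pairs, and the other genes of these pathways and the tissue markers were not analysed here.

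The members and lists were chosen with earlier results of these data known. Named were the 8 members, isoforms with at least 10% of a gene locus at a stage, the nearest loci and the 2 nearest transcripts in course. Other transcripts of the lincRNA loci were named after their values were seen. FPKM was summed over transcripts of the same locus interval. Where the comparisons disagreed on a stage, with 0 beside a positive value (1189 cases), the positive value was used. Differences were taken on log2(FPKM + 1). The alternatives were a pseudocount of 0.1, a 4-fold threshold, quantile normalisation, and scaling to equal medians or equal sums. The calculations used pandas 2.3.3 and numpy 2.4.6 under Python 3.11.15 and were tested on simulated data.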

Additional observations from a re-analysis of the deposited data

How the results depend on the processing

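Of 64 differences of the 8 paired transcripts recomputed under alternatives, 58 kept their direction and their side of the 2-fold threshold. Scaling to equal sums, sums without transcripts of too little data, and 0 where comparisons disagree were chosen after seeing the data, as was every alternative, quantile normalisation included, for the differences and ratios of locus sums. The 4 gene transcripts high at E60 became 3 after quantile normalisation and 1 with sums per locus (49.2% of all loci). The 4 lincRNAs low at E60 became 2 after scaling to equal sums and 3 with sums per locus (14.3% of all loci). The gene loci highest at E60 (1) became 2 after quantile normalisation, 3 after scaling to equal sums and 2 without transcripts of too little data. Loci highest at E60 near the genes numbered 22 of 39 within 500 kb.

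The RPN1 lincRNA turned to -0.45 from E60 to E70 after scaling to equal sums. Under this scaling, E60 minus E50 turned to 0.40 at the RPN1 locus, 1.46 at COG4 and 2.74 at AP2M1, and E70 minus E60 to -1.93 at COG4 and -2.44 at AP2M1. The AP2M1 locus also turned after quantile normalisation (1.11 and -0.92), without transcripts of too little data (4.63 and -2.84) and, from E60 to E70, with 0 where comparisons disagree (-2.62).

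Among all transcripts, quantile normalisation gave 31.8% higher and 29.8% lower at E60 than at E50, 28.0% higher and 31.4% lower at E70 than at E60, 26.2% high at E60 and 19.2% low at E60. Scaling to equal sums gave 9.68% lower at E60 than at E50, 8.75% higher at E70 than at E60 and 6.95% low at E60. The causes of these shifts were not tested. No paired analysis was possible because each stage has a single value. The number of reads behind each value is unknown, and differences between single values per stage carry no replicate check.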
